A study of Mus musculus with 6 samples.

Results

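Sterol and fatty acid synthesis genes were examined in mouse embryo fibroblasts (MEFs) with and without Rnf40. They are 33 genes, taken by symbol from textbook pathways, though with earlier results of these data known, so that their counts are not independent evidence: 5 regulators of the SREBP pathway, 16 enzymes of sterol synthesis, 1 sterol carrier and 11 enzymes of fatty acid synthesis, elongation and desaturation. The table of the series lists 29955 genes, among them all 33, which were also among the 16378 genes with enough reads to be tested. RNF40 forms, with RNF20, the enzyme that attaches a single ubiquitin to histone H2B, and the comparison asks how expression of these genes differs once it is lost. The series holds 3 RNA-seq libraries of Rnf40+/+ MEFs and 3 of Rnf40-/- MEFs, all from passage 3. For the deletion, MEFs from 13.5-day embryos carrying Rosa26-CreERT2, a tamoxifen-inducible Cre expressed from a ubiquitously active locus, and Rnf40 loxP/loxP alleles (loxP sites around exons 3 and 4) were given 250 nM 4-hydroxytamoxifen (4-OHT) over 5 days, followed by 3 days in medium lacking it. The methods describe MEFs in general as made from such embryos, but do not state the alleles of the Rnf40+/+ cells of these libraries or whether they received 4-OHT, so that deletion and treatment cannot be told apart. The labels do not say that the libraries of a genotype came from separate embryos or cultures, and p-values therefore measure only the spread between these libraries, which may be technical.

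Cells make cholesterol from acetyl-CoA through the mevalonate pathway, and fatty acids from the same precursor through malonyl-CoA. Both pathways are driven by the sterol regulatory element-binding proteins, transcription factors encoded by Srebf1 and Srebf2 that are made as membrane-bound precursors. SCAP escorts the precursors from the endoplasmic reticulum to the Golgi, where they are cleaved and released, and the INSIG proteins hold SCAP back when sterols are plentiful. SREBP-2 mainly drives sterol genes and SREBP-1 mainly fatty acid genes. In fibroblasts the pathways supply membrane lipid.

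Expression is given as normalized counts, that is reads on a gene divided by 1 DESeq size factor per library. Fold changes are on the scale of log2(normalized count + 1), Rnf40-/- against Rnf40+/+, with the standard error (SE), and adjusted p-values come from limma after Benjamini-Hochberg adjustment over the 16378 genes. A gene with an adjusted p under 0.05 is said to have risen or fallen. Libraries held from 17053436 to 26344170 reads on genes. Rnf40 itself stood at 1278, 1195 and 1096 normalized counts in Rnf40+/+ and 439, 519 and 487 in Rnf40-/- libraries, so that 40.5% of the level was left in a count over the whole gene (log2 fold change -1.30, SE 0.09, adjusted p = 4.25e-07). Rnf40+/+ replicate 3, the deepest library, stood apart, and not only for the sterol genes. Across genes, the chi-square per gene between its reads and those of Rnf40+/+ replicates 1 and 2 was 26.9 and 24.1. Between replicates 1 and 2 it was 7.87, though this measure also grows with depth. Replicate 3 was the highest Rnf40+/+ library in 14 of the 16 sterol synthesis genes (87.5%). The same held for 22 of the 33 genes (66.7%), against 34.3% of all genes tested. Its ratio to the mean of the other Rnf40+/+ libraries exceeded 1.5 in 6 of the 33 genes (18.2%) and in 6.09% of all genes. Values without this library are given beside the genes that it moved most.

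The sequence just upstream of the gene start was read for 26 of the 33 genes, all but Scd1, Scd2, Fdps, Fads1, Stard4, Fdft1 and Sqle, from RefSeq promoter windows (mouse build GRCm38.p6, a newer build than the mm9 of the expression files). Printed below are the 250 bases before the start of the 2 sterol enzymes with the largest falls, Nsdhl and Idi1, of Insig1, of Hmgcs1 and Srebf2, which hold the sterol regulatory element letters, and of Ebp, a sterol enzyme whose expression did not pass the test. Capitals mark the letters of the sterol regulatory element, the E-box and the CCAAT box (read as ATTGG on the printed strand), each sequence runs 5′ to 3′ along the strand of the gene, and the sequences lie at chrX:72918271-72918520 (plus strand, Nsdhl), chr13:8885356-8885605 (plus, Idi1), chr5:28071162-28071411 (plus, Insig1), chr13:119690101-119690350 (plus, Hmgcs1), chr15:82147019-82147268 (plus, Srebf2) and chrX:8193513-8193762 (minus, Ebp).
Nsdhl: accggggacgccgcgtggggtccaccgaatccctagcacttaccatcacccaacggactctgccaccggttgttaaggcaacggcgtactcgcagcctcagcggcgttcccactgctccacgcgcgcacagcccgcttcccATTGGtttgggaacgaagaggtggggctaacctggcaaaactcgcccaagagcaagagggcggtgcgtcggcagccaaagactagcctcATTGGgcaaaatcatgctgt
Idi1: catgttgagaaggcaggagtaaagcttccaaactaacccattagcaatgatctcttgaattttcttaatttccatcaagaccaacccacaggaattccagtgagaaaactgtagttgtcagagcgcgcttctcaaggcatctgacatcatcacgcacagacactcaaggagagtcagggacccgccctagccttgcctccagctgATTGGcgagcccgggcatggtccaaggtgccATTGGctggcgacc
Insig1: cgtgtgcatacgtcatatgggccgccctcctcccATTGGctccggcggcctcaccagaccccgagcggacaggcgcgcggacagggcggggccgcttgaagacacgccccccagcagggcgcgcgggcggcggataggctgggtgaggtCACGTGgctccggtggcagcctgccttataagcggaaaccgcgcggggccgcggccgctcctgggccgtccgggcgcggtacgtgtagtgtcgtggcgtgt
Hmgcs1: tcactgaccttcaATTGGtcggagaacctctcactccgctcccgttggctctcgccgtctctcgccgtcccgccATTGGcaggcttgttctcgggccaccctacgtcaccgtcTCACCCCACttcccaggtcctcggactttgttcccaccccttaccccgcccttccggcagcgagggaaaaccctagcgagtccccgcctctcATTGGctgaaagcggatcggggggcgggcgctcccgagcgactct
Srebf2: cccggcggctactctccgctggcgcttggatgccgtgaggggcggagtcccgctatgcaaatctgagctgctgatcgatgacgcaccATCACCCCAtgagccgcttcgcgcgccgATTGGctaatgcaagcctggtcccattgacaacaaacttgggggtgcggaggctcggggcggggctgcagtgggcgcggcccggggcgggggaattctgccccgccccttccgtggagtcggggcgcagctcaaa
Ebp: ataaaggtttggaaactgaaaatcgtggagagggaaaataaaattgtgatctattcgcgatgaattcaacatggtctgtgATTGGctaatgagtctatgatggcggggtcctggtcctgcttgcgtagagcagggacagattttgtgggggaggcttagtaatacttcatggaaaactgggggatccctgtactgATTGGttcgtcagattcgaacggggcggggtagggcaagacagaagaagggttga

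Letters that these promoters shared were counted on both strands of the RefSeq windows, which run from 250 bases before to 50 bases after the start, in 27025 genes. These are all genes with a window, including genes without enough reads to be tested here, whereas all 26 were tested. Shares among expressed genes only were not counted, so a higher share in the 26 is not shown to be particular to them. The sterol regulatory element of the textbook, TCACNCCAC, was present in 1 of the 26 genes (Hmgcs1, 137 to 129 bases before the start) and in 1.44% of all genes. The overlapping spelling ATCACNCCA was present in 1 (Srebf2, 163 to 155 bases before the start) and in 0.992% of all genes. The CCAAT box, bound by NF-Y, was present in 21 of the 26 genes (80.8%) against 41.1% of all genes, and the GC box GGGCGG, bound by Sp1-family factors, likewise in 21 (80.8%) against 38.2%. Both were found in genes that fell and in genes that did not: CCAAT in 15 of the 17 genes with a window that fell and in 6 of the 9 others, GGGCGG in 14 of the 17 and in 7 of the 9. The E-box CACGTG was present in 5 (19.2%), Scap, Insig1, Hsd17b7, Dhcr7 and Elovl5, against 8.09% of all genes. The 7 genes without a window all fell, so these shares leave out part of the genes that fell. A match describes letters only. Only the exact spellings given were counted, so that a gene without them may hold an element in other letters. The spellings reported for the sterol regulatory element and the E-box were chosen after the matches were seen.

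Of the 33 genes, 24 fell and 3 rose in Rnf40-/- MEFs, and 6 did not pass the test. The share that fell or rose was thus 81.8%, where 47.4% of all genes tested did (24.1% fell and 23.3% rose). The libraries of the genotypes did not overlap for 25 genes that were lower and 3 that were higher, against 28.7% and 27.8% of all genes. The median log2 fold change was -0.81, against -0.0035 over all genes tested. Measured in each library against the Rnf40+/+ mean, the median over the 33 genes was -0.13, -0.02 and 0.14 in Rnf40+/+ and -0.87, -0.78 and -0.82 in Rnf40-/- replicates 1 to 3. The thresholds of the study (mean over 15, unadjusted p under 0.05 and log2 fold change beyond 1 in size) were applied to the limma values, in place of the DESeq values they were set for. By these criteria 12 genes were lower and 0 higher, against 5.70% lower and 4.25% higher of all genes. Without Rnf40+/+ replicate 3 the same 24 genes fell and the same 3 rose, the median was -0.68, and 7 genes were left under the criteria of the study. In RNA from whole cultures, fewer cells expressing a gene and less RNA per cell cannot be told apart.

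**Figure D1:**
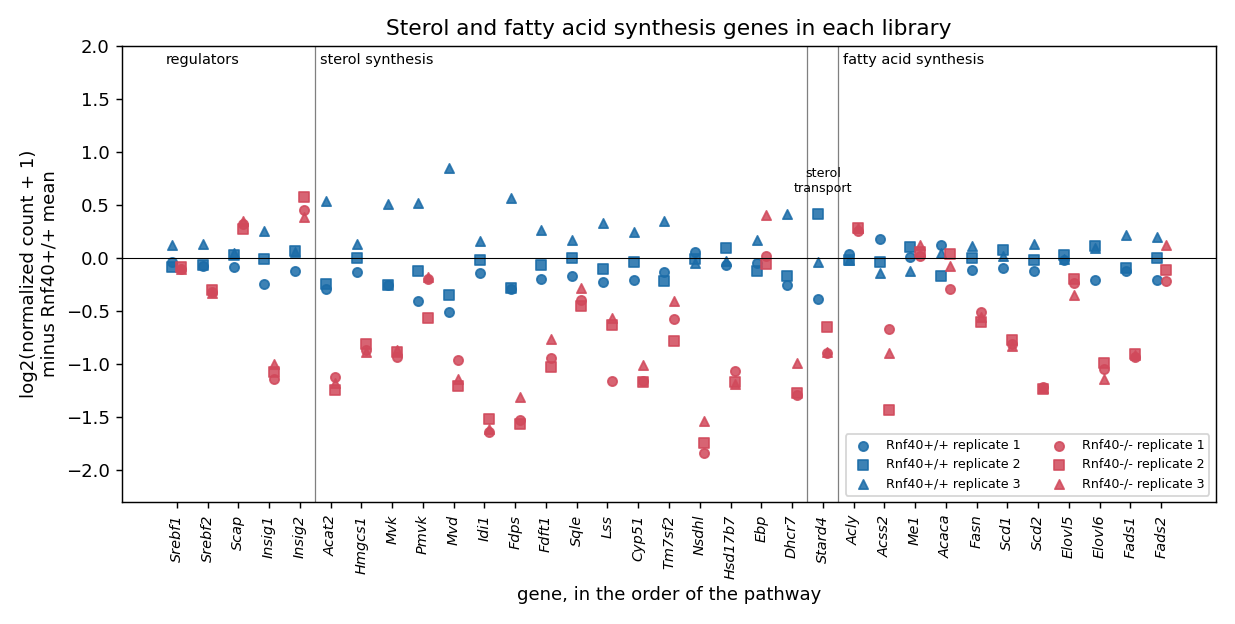
Each gene's log2(normalized count + 1) in each of the 6 libraries (blue Rnf40+/+, red Rnf40-/-, symbols for replicates), less the Rnf40+/+ mean of that gene, with genes in pathway order along the x axis. The Rnf40-/- libraries lie below the Rnf40+/+ libraries in 25 of 33 genes, and the blue triangles of Rnf40+/+ replicate 3 lie high in the sterol genes, most of all in Mvd.

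**Figure D2:**
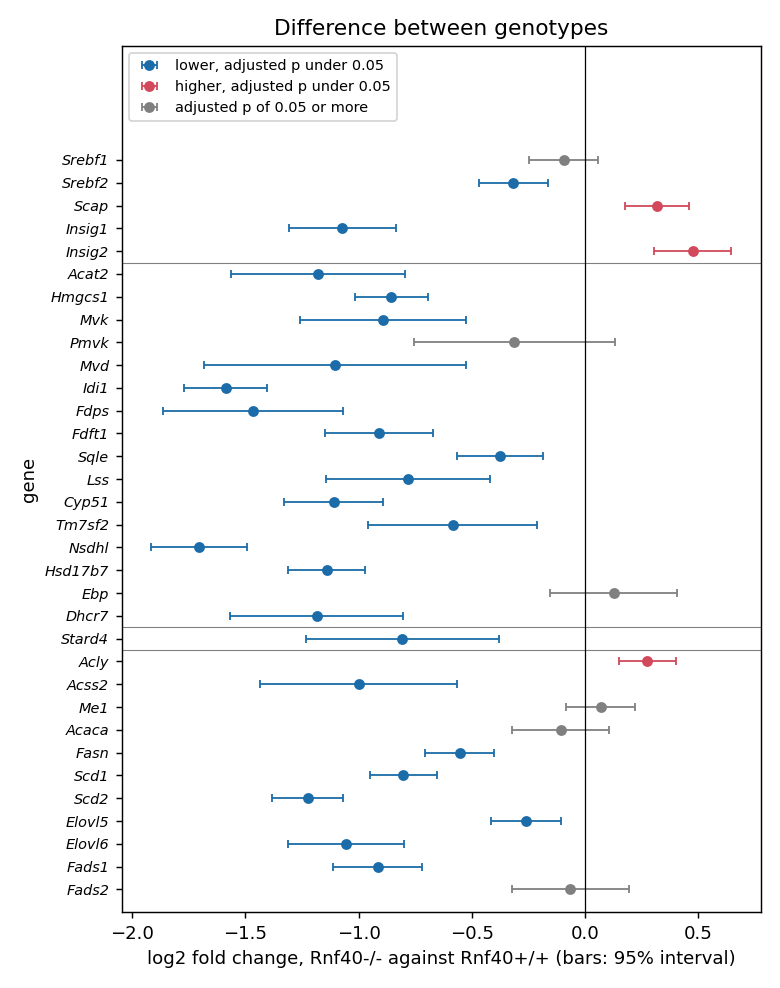
Log2 fold change of each gene (x axis, Rnf40-/- against Rnf40+/+) with its 95% interval from limma, genes in pathway order. The 24 genes that fell are in blue and reach -1.71 (Nsdhl), the 3 that rose are in red (Scap, Insig2 and Acly), and the 6 that did not pass the test are in grey.

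The regulators moved in different directions. Srebf2 (chr15:81977696-82035806, plus strand of mm9), which encodes SREBP-2, had 2613, 2625 and 3008 normalized counts in Rnf40+/+ and 2191, 2225 and 2184 in Rnf40-/- libraries, the means being 2749 ± 225 against 2200.1 ± 21.9 (SD, n = 3 each). It fell by a small amount, with no overlap between the genotypes (log2 fold change -0.32, SE 0.07, adjusted p = 0.00271). Srebf1 (chr11:60012591-60036083, minus strand), which encodes SREBP-1a and SREBP-1c, had 1879.7, 1824 and 2097 in Rnf40+/+ and 1799.7, 1816 and 1802 in Rnf40-/- libraries. Its libraries did not overlap, yet the difference did not pass the test (log2 fold change -0.10, SE 0.07, adjusted p = 0.281), with a 95% interval from -0.25 to 0.06, and was -0.04 (adjusted p = 0.687) without Rnf40+/+ replicate 3. Acaca, Acss2, Fdft1, Lss, Me1, Mvd, Scap and Srebf1 overlap an annotated gene on the opposite strand, and as it is not stated whether strand was used in counting, reads of such a pair cannot be assigned with certainty. Acat3, Ggps1, Mbtps2, Npc1, Ehhadh and Fn1, named below, also overlap such a gene. Neither an overlap nor sequence shared with other genes was checked for Hmgcs1, whose symbol was missing from the annotation used. The table holds 1 value per gene, so that the SREBP-1a and SREBP-1c transcripts cannot be separated.

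Insig1 (chr5:28397952-28405201, plus strand), which retains SCAP and is itself induced by SREBPs, had 1376, 1627 and 1949 normalized counts in Rnf40+/+ and 741, 774 and 815 in Rnf40-/- libraries. Every Rnf40-/- library was well below every Rnf40+/+ library, and 47.1% of the level was left (log2 fold change -1.07, SE 0.11, adjusted p = 8.73e-06). Insig2 (chr1:123200930-123229166, minus strand), a related retention protein, had 1125, 1289 and 1274 in Rnf40+/+ and 1686, 1831 and 1606 in Rnf40-/- libraries. It rose (log2 fold change 0.47, SE 0.08, adjusted p = 0.000392), and its lowest Rnf40-/- library was above its highest Rnf40+/+ library. Scap (chr9:110235792-110287450, plus strand), the escort of the SREBPs, had 2037, 2211 and 2238 in Rnf40+/+ and 2706, 2611 and 2749 in Rnf40-/- libraries and also rose (log2 fold change 0.32, SE 0.06, adjusted p = 0.00167).

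The first steps of sterol synthesis build mevalonate and turn it into farnesyl pyrophosphate. Of the 7 enzymes here, 6 fell and 1 did not pass the test, with a median log2 fold change of -1.10. Idi1 (chr13:8884852-8891641, plus strand), which isomerises isopentenyl pyrophosphate, had 1907, 2073 and 2352 normalized counts in Rnf40+/+ and 673, 736 and 689 in Rnf40-/- libraries. With 33.1% of the level left, it showed the largest fall of these 7 (log2 fold change -1.59, SE 0.08, adjusted p = 6.59e-08). Fdps (chr3:88897514-88905881, minus strand), which condenses the isoprene units to farnesyl pyrophosphate, had 2027, 2036 and 3672 in Rnf40+/+ and 859.6, 835 and 996 in Rnf40-/- libraries. Replicate 3 stood far above the other Rnf40+/+ libraries here, and the log2 fold change of -1.47, SE 0.18, adjusted p = 4.45e-05 was -1.18 without it. Hmgcs1, which makes HMG-CoA, had 3690.2, 4059 and 4426 in Rnf40+/+ and 2215, 2306 and 2191 in Rnf40-/- libraries and fell with a narrow spread (log2 fold change -0.86, SE 0.07, adjusted p = 2.43e-06).

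Mvd (chr8:124957496-124967322, minus strand), the decarboxylase that ends the mevalonate steps, had 455, 509 and 1164 normalized counts in Rnf40+/+ and 331, 279 and 293 in Rnf40-/- libraries. Rnf40+/+ replicate 3 was 2.41 times the mean of the other Rnf40+/+ libraries, and the log2 fold change went from -1.10, SE 0.26, adjusted p = 0.00464 to -0.68 (adjusted p = 0.000211) without it. Mvk, mevalonate kinase, had 598, 599.6 and 1017 in Rnf40+/+ and 374, 386 and 393 in Rnf40-/- libraries (log2 fold change -0.89, SE 0.17, adjusted p = 0.000952). Its value was -0.64 without Rnf40+/+ replicate 3, and it fell in either case. Acat2, which joins acetyl-CoA units at the start of the pathway, had 690.3, 712 and 1227 in Rnf40+/+ and 387, 357 and 374 in Rnf40-/- libraries (log2 fold change -1.18, SE 0.18, adjusted p = 0.000177, or -0.91 without Rnf40+/+ replicate 3). As 41.4% of the stretches of 50 bases in Acat2 transcripts also occur in its neighbour Acat3, reads may be divided between them. Acat3 had a log2 fold change of -0.25, SE 0.09, adjusted p = 0.0333.

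Pmvk, phosphomevalonate kinase, was the member of these steps that did not pass the test, with 291 ± 99.6 normalized counts in Rnf40+/+ and 227 ± 33.02 in Rnf40-/- libraries (SD, n = 3 each) and overlapping genotypes. Its log2 fold change of -0.31, SE 0.20, adjusted p = 0.228 was -0.05 without Rnf40+/+ replicate 3 and passed the test without Rnf40+/+ replicate 1 (-0.51, adjusted p = 0.03315).

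The later steps join farnesyl units to squalene, close the rings to lanosterol and finish cholesterol. Of 9 enzymes from Fdft1 to Dhcr7, 8 fell and 1 did not pass the test, with a median log2 fold change of -0.91. Nsdhl (chrX:70163896-70203853, plus strand), a dehydrogenase that helps to remove the methyl groups at C4 of the ring, had 896, 859.7 and 835 normalized counts in Rnf40+/+ and 241, 258 and 296 in Rnf40-/- libraries. Among the 33 genes its fall was the largest (log2 fold change -1.71, SE 0.10, adjusted p = 1.05e-07), the means being 863 ± 30.7 and 265 ± 28.6 (SD, n = 3 each), and Rnf40+/+ replicate 3 was the lowest of its Rnf40+/+ libraries. Hsd17b7 (chr1:171879666-171899372, minus strand), the ketoreductase of the same demethylation, had 1197, 1343 and 1227 in Rnf40+/+ and 599, 556 and 549.5 in Rnf40-/- libraries (log2 fold change -1.14, SE 0.08, adjusted p = 4.05e-07). Cyp51 (chr5:4081145-4104746, minus strand), which removes the methyl group at C14 of lanosterol, had 2609, 2922 and 3552 in Rnf40+/+ and 1349, 1335 and 1492 in Rnf40-/- libraries, and all 3 of the latter were below the former (log2 fold change -1.11, SE 0.10, adjusted p = 3.58e-06).

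Dhcr7 (chr7:151009050-151034315, plus strand), which reduces 7-dehydrocholesterol to cholesterol, had 253, 268 and 403 normalized counts in Rnf40+/+ and 122, 124 and 151 in Rnf40-/- libraries (log2 fold change -1.19, SE 0.18, adjusted p = 0.000168, or -0.98 without Rnf40+/+ replicate 3). Fdft1, squalene synthase, had 2289, 2505 and 3144 in Rnf40+/+ and 1367, 1284 and 1543 in Rnf40-/- libraries and fell with no overlap (log2 fold change -0.91, SE 0.11, adjusted p = 3.25e-05, or -0.78 without Rnf40+/+ replicate 3). Lss, which closes squalene epoxide to lanosterol, had 659, 717 and 971 in Rnf40+/+ and 345, 499 and 522 in Rnf40-/- libraries. Rnf40-/- replicate 1 was the lowest library for Lss (log2 fold change -0.78, SE 0.17, adjusted p = 0.00212, or -0.62 without Rnf40+/+ replicate 3). Tm7sf2, a sterol C14 reductase, had 180.3, 170.3 and 252 in Rnf40+/+ and 133, 115 and 149 in Rnf40-/- libraries. This was the weakest call among the genes that fell (log2 fold change -0.59, SE 0.17, adjusted p = 0.014), it was -0.41 (adjusted p = 0.0493) without Rnf40+/+ replicate 3 and was lost without Rnf40-/- replicate 2 (-0.49, adjusted p = 0.0643), and 19.2% of its stretches of 50 bases also occur in the overlapping gene 1110014N23Rik.

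Sqle, squalene epoxidase and a rate-limiting step of the later pathway, had the smallest fall of the 14 sterol enzymes that fell (differences between genes were not tested), from 2378 ± 279 to 1827 ± 114 normalized counts (SD, n = 3 each; log2 fold change -0.38, SE 0.09, adjusted p = 0.00379). Ebp, the sterol isomerase, had 398 ± 42.0 in Rnf40+/+ and 437 ± 77.8 in Rnf40-/- libraries, with overlapping genotypes (log2 fold change 0.13, SE 0.13, adjusted p = 0.449) and a 95% interval from -0.15 to 0.41, and its log2 fold change was 0.21 (adjusted p = 0.204) without Rnf40+/+ replicate 3. The interval with all libraries lies above the fitted value of each of the 14 sterol enzymes that fell. Summed over the 16 sterol synthesis genes, the normalized counts were 20148, 21771 and 27748 in Rnf40+/+ and 11446, 11367 and 12362 in Rnf40-/- libraries, so that the genotypes did not overlap in the sum either. Stard4, the carrier that moves sterol between membranes, had 133, 231 and 168 in Rnf40+/+ and 92.8, 109.6 and 93.5 in Rnf40-/- libraries and fell (log2 fold change -0.81, SE 0.20, adjusted p = 0.00479).

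**Figure D3:**
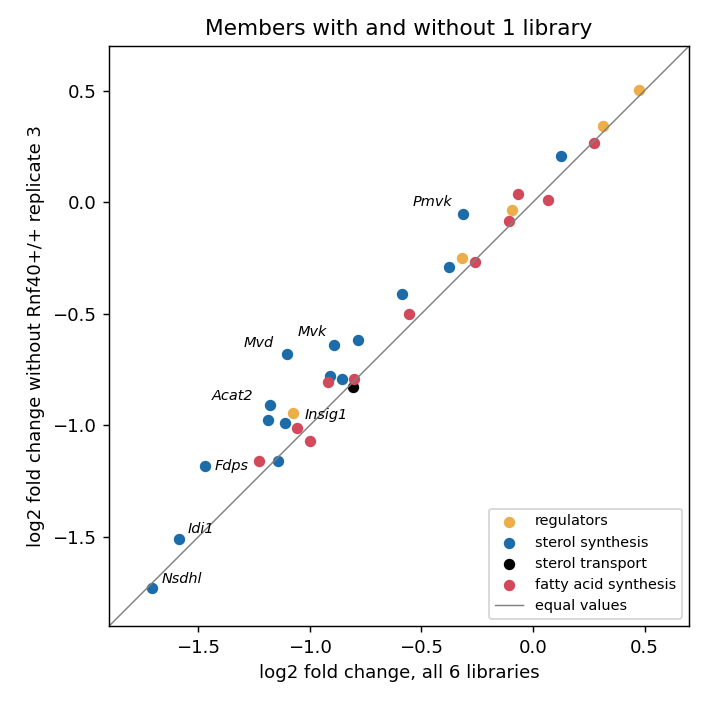
Log2 fold change of each gene with all 6 libraries (x axis) and without Rnf40+/+ replicate 3 (y axis), points coloured by role, with the line of equal values. Mvd, Mvk, Fdps, Acat2 and Pmvk lie above the line, with smaller falls once this library is left out (Mvd from -1.10 to -0.68), while Nsdhl and the fatty acid genes lie near it.

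Among the 11 fatty acid genes, 7 fell, 1 rose and 3 did not pass the test, with a median log2 fold change of -0.56. Of the enzymes that make the saturated chain (Acly, Acss2, Me1, Acaca and Fasn), 2 fell, 1 rose and 2 did not pass the test. Their summed normalized counts, from 17531 to 17777 in Rnf40+/+ and from 16974 to 17538 in Rnf40-/- libraries, overlapped narrowly. Most of the sum was Acly, Me1 and Fasn, of which Acly rose and Fasn fell, so that the sum mixes opposite changes. Fasn, fatty acid synthase, fell from 5114 ± 391 to 3475 ± 111 normalized counts (SD, n = 3 each; log2 fold change -0.56, SE 0.07, adjusted p = 4.72e-05). Acly (chr11:100337667-100389314, minus strand), which makes cytosolic acetyl-CoA from citrate and so feeds both pathways, rose from 5743 ± 122 to 6941 ± 65.2 (SD, n = 3 each; log2 fold change 0.27, SE 0.06, adjusted p = 0.00214). Acss2 (chr2:155343684-155411460, plus strand), which makes acetyl-CoA from acetate, had 193, 167 and 155 in Rnf40+/+ and 107, 62.6 and 91.6 in Rnf40-/- libraries. It fell, at low counts and with the widest relative spread in Rnf40-/- libraries of the fatty acid genes (log2 fold change -1.001, SE 0.20, adjusted p = 0.00138).

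Acaca, acetyl-CoA carboxylase and the committed step of fatty acid synthesis, had 1300.0 ± 132 normalized counts in Rnf40+/+ and 1206 ± 135 in Rnf40-/- libraries (SD, n = 3 each). Its genotypes overlapped (log2 fold change -0.11, SE 0.10, adjusted p = 0.388), with a 95% interval from -0.32 to 0.10. Me1, malic enzyme and a source of NADPH for the chain, had 5292 ± 414 and 5538 ± 207 (SD, n = 3 each; log2 fold change 0.07, SE 0.07, adjusted p = 0.459, 95% interval from -0.09 to 0.22, or 0.0083 without Rnf40+/+ replicate 3).

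The enzymes that desaturate and lengthen the chain fell in 5 of 6 cases, with a median log2 fold change of -0.86. Scd2 (chr19:44368166-44381354, plus strand), the stearoyl-CoA desaturase with the most reads of the 33 genes, had 10537, 11352 and 12602 normalized counts in Rnf40+/+ and 4926, 4874 and 4906 in Rnf40-/- libraries. The Rnf40-/- libraries lay close together at 42.6% of the Rnf40+/+ level (log2 fold change -1.23, SE 0.07, adjusted p = 1.32e-07). Scd1 (chr19:44468941-44482199, minus strand), its neighbour on chromosome 19, had 1794, 2009 and 1933 in Rnf40+/+ and 1089, 1116 and 1078 in Rnf40-/- libraries (log2 fold change -0.80, SE 0.07, adjusted p = 2.28e-06). Shared stretches of 50 bases with other Scd genes made up 4.66% of Scd1 and 3.79% of Scd2 transcripts. Elovl6 (chr3:129235304-129341413, plus strand), which lengthens palmitate, had 357, 447 and 440.0 in Rnf40+/+ and 199, 208 and 187 in Rnf40-/- libraries, all of the latter below the former (log2 fold change -1.06, SE 0.12, adjusted p = 1.78e-05).

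Elovl5, which lengthens polyunsaturated chains, had 1094, 1127 and 1096 normalized counts in Rnf40+/+ and 938, 962 and 869 in Rnf40-/- libraries, a small fall without overlap (log2 fold change -0.26, SE 0.07, adjusted p = 0.0096). Fads1 (chr19:10257378-10271360, plus strand), the delta-5 desaturase of polyunsaturated fatty acids, had 1525, 1552 and 1937 in Rnf40+/+ and 869.8, 888 and 880.0 in Rnf40-/- libraries. It fell, and its Rnf40-/- libraries were close together (log2 fold change -0.92, SE 0.09, adjusted p = 7.26e-06). Fads2, the delta-6 desaturase of the same pathway, had 479, 554 and 636 in Rnf40+/+ and 476, 512 and 602 in Rnf40-/- libraries. Here the genotypes overlapped (log2 fold change -0.07, SE 0.12, adjusted p = 0.677, 95% interval from -0.32 to 0.19), and the sign turned without Rnf40+/+ replicate 3 (0.04, adjusted p = 0.82).

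The values of related genes were also set against each other within each library, as the log2 ratio of their normalized counts, which restates the single-gene values above. The ratio of Insig1 to Insig2 was 0.29, 0.34 and 0.61 in Rnf40+/+ and -1.18, -1.24 and -0.98 in Rnf40-/- libraries, positive in each of the former and negative in each of the latter. The genotypes differed by -1.55. For Fads1 to Fads2 the ratio went from 1.59 ± 0.09 to 0.74 ± 0.17 (SD, n = 3 each), a difference of -0.85. Elovl5 to Elovl6 went from 1.42 ± 0.17 to 2.22 ± 0.01 (SD, n = 3 each), a difference of 0.80, and Scd1 to Scd2 differed by 0.42 and Srebf1 to Srebf2 by 0.22. The two-sided exact permutation test gave p = 0.1 for each of the 5 pairs (0.1 after Benjamini-Hochberg adjustment over them), the smallest p that 3 libraries against 3 allow and not past the threshold.

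**Figure D4:**
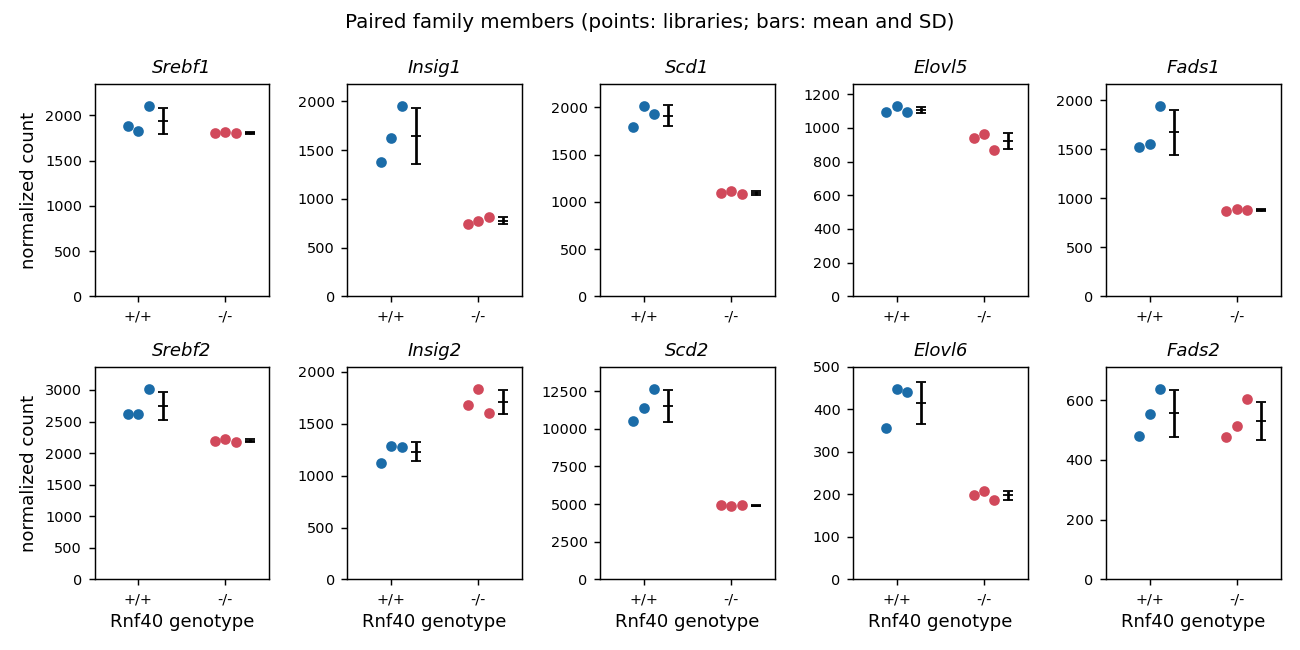
Normalized counts (y axis from 0) of the 5 pairs of related genes in every library, with mean and SD (n = 3) beside the points of each genotype. Insig1 fell while Insig2 rose, both Scd genes fell, Fads1 fell while Fads2 overlapped between the genotypes, and Elovl6 fell further than Elovl5.

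Expression levels were also compared between genes per length, as reads per kilobase of the longest coding transcript and scaled to library size (RPKM) within Rnf40+/+ libraries. Hmgcs1 was not included, as its symbol had no length in the annotation used. Scd2 and Fdps were highest, at 101 ± 7.86 and 100.1 ± 36.0 RPKM (SD, n = 3 each), and these did not differ beyond their spread. Me1 (77.1 ± 6.01), Acly (62.2 ± 2.65), Fdft1 (44.3 ± 6.97) and Sqle (41.3 ± 4.25) followed. Acss2 (2.82 ± 0.380) and Stard4 (1.66 ± 0.440) were lowest. Among the regulators, Insig1 had 29.8 ± 4.798, Srebf2 26.4 ± 2.01, Scap 24.5 ± 0.764, Insig2 21.8 ± 1.17 and Srebf1 21.6 ± 1.58 RPKM. Within their SD, Insig1, Srebf2 and Scap overlapped with each other, as did Insig2 and Srebf1.

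Other genes of the same and neighbouring pathways were taken from 7 lists of 78 genes, of which 72 were tested. Of these, 17 rose, 21 fell and 34 did not pass the test. The share that passed was thus 52.8%, beside 47.4% of all genes tested. The list nearest to the sterol synthesis genes holds other enzymes of sterol synthesis together with Ggps1, Dhdds, Pdss1 and Pdss2, which make other isoprenoids from the same precursors. In it 5 of 8 fell (62.5%, against 24.1% of all genes tested), 1 rose and 2 did not pass the test. The median log2 fold change was -0.52. Sc4mol, the sterol C4 methyl oxidase that acts with Nsdhl and Hsd17b7, had 2988, 3055 and 3335 normalized counts in Rnf40+/+ and 1238, 1306 and 1300.2 in Rnf40-/- libraries (log2 fold change -1.28, SE 0.07, adjusted p = 5.88e-08). Ggps1, which makes geranylgeranyl pyrophosphate for protein prenylation and stands off the path to cholesterol, rose (log2 fold change 0.34, SE 0.09, adjusted p = 0.00642).

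Of 6 genes of SREBP processing and sterol-regulated degradation, 3 rose (50%) and 2 fell (33.3%). Of all genes tested, 23.3% rose and 24.1% fell. The proteases that cleave SREBPs in the Golgi moved in opposite directions: Mbtps1, the site-1 protease, rose (log2 fold change 0.45, SE 0.06, adjusted p = 6.08e-05), and Mbtps2, the site-2 protease, fell (log2 fold change -0.40, SE 0.09, adjusted p = 0.00408). Of 11 genes of sterol uptake and storage, 3 fell (27.3%), 1 rose (9.09%) and 7 did not pass the test, with a median of -0.01. The share that fell was thus near that of all genes. Soat1, which esterifies cholesterol for storage, fell (log2 fold change -0.59, SE 0.07, adjusted p = 3.97e-05), and Npc1, which moves cholesterol out of lysosomes, was close to the threshold (log2 fold change 0.19, SE 0.07, adjusted p = 0.0499) and lost its call without Rnf40+/+ replicate 1 or 3, or Rnf40-/- replicate 2 or 3 (adjusted p from 0.0736 to 0.19). Among 9 factors and targets of LXR, the nuclear receptor for oxysterols, 1 rose and 1 fell (11.1% each, below the shares of all genes). Abca1, the cholesterol efflux pump, rose (log2 fold change 0.93, SE 0.08, adjusted p = 2.01e-06). Apoe, which carries lipid out of cells, had 1089, 1469 and 4573 normalized counts in Rnf40+/+ and 715, 631 and 876 in Rnf40-/- libraries. Rnf40+/+ replicate 3 was again far above the others, and the log2 fold change went from -1.40, SE 0.38, adjusted p = 0.0093 to -0.78 (adjusted p = 0.000246) without it.

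Of 22 other genes of fatty acid synthesis, 17 were tested, of which 5 rose (29.4%), 4 fell (23.5%) and 8 did not pass the test (median -0.15). Of all genes tested, 23.3% rose and 24.1% fell. Elovl7, an elongase of long saturated chains, rose at low counts (log2 fold change 1.32, SE 0.24, adjusted p = 0.000784), and Acsl3, which activates fatty acids for lipid synthesis, fell (log2 fold change -0.82, SE 0.10, adjusted p = 2.93e-05). Of 9 glycerolipid synthesis genes tested, 2 rose (22.2%) and 3 fell (33.3%). The largest rise was that of Lpin2, a phosphatidate phosphatase (log2 fold change 0.67, SE 0.09, adjusted p = 6.9e-05), and the largest fall that of Dgat2, which makes triglyceride (log2 fold change -0.91, SE 0.17, adjusted p = 0.000842). In fatty acid oxidation 4 of 12 rose (33.3%) and 3 fell (25%, near the share of all genes), with a median of 0.06. Hadhb of the mitochondrial trifunctional protein was higher (log2 fold change 0.69, SE 0.07, adjusted p = 6.92e-06) and Ehhadh of the peroxisomal pathway lower (log2 fold change -0.83, SE 0.25, adjusted p = 0.0152). The call of Ehhadh was lost without Rnf40+/+ replicate 2 (adjusted p = 0.077) and without Rnf40-/- replicate 1 (adjusted p = 0.0568).

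**Figure D5:**
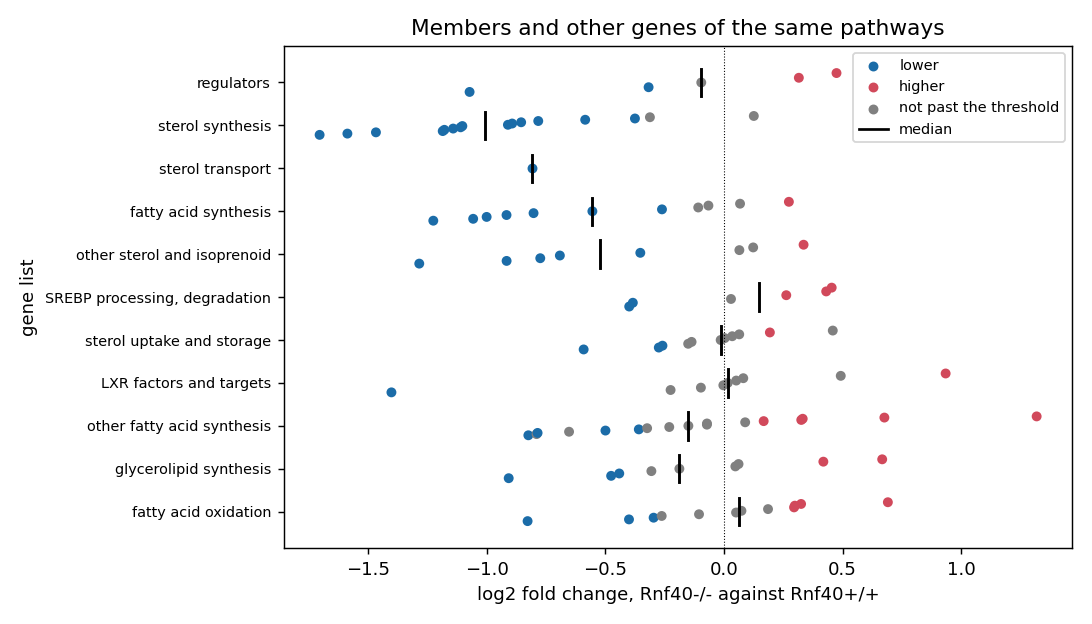
Log2 fold change (x axis, Rnf40-/- against Rnf40+/+) of every tested gene of the 4 roles of the 33 genes and of 7 lists of related pathways, with the median of each list as a black bar. The sterol synthesis genes lie lowest (median -1.01), the list of other sterol and isoprenoid synthesis genes at -0.52, and the lists of uptake, LXR and oxidation lie near 0 with genes on both sides.

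Markers of cell types and of proliferation differed between the same libraries, in which 24.1% of all genes tested fell and 23.3% rose. Of 9 fibroblast markers 7 were lower and 2 did not pass the test, and their summed normalized counts ranged from 667813 to 739923 in Rnf40+/+ and from 399739 to 402622 in Rnf40-/- libraries, with every marker above 0 in every library. The largest part was Fn1, at 328300 ± 13475 and 210096 ± 6747 (SD, n = 3 each). With Col1a1, Col1a2 and Vim it made up most of each sum, so that the sum mainly restates these genes. All 6 proliferation markers fell, with sums from 2953 to 3691 in Rnf40+/+ and from 446 to 543 in Rnf40-/- libraries, and none was at 0. Of 6 macrophage markers 2 rose (Ptprc and Cd14, log2 fold changes 1.37 and 0.66), 1 fell (Lyz2) and 3 did not pass the test. Their sums went from 4868 to 8789 in Rnf40+/+ and from 3226 to 3529 in Rnf40-/- libraries. Most of each sum was Lyz2, at 5314 ± 1867 and 2264 ± 152 (SD, n = 3 each), so that the sum mainly restates this 1 gene. Rnf40+/+ replicate 3 had the highest sum, as for the sterol genes. Of 4 endothelial markers 3 rose from a low level, with sums from 46.9 to 143 and from 173 to 265. The sum of 143, in Rnf40+/+ replicate 1, was mostly Tek, the marker that did not pass the test. Tek had 115 there and 11.2 and 16.0 in Rnf40+/+ replicates 2 and 3. Of 9 adipocyte markers 4 were tested, of which Fabp4 rose and Cebpa fell; their sums overlapped (477 to 874 and 626 to 689), and Adipoq was at 0 in every library. Of 4 epithelial markers 1 was tested and did not pass, and the sums overlapped (23.5 to 83.6 and 24.004 to 42.8). The part of these differences in the result for the sterol and fatty acid genes was not tested.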

How the data were processed

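Reads were aligned by the authors to transcripts of mouse build mm9 and scaled by DESeq, and the submitters' processing notes name Bowtie2 (version 2.1.0) and DESeq (version 1.14.0). The counting tool, and whether strand was used in counting after the strand-specific library preparation, are not given in the sources used here. The deposited signal is therefore a normalized count, the reads of a gene over the size factor of its library. Dividing by the smallest value of a library turned 100% of its positive values into whole reads (tolerance 0.01). A count of 3 reads corresponds to 2.40 to 3.58 normalized counts, and this limit covers counting error only.

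As the values are normalized, the test was limma (version 3.58.1) in R (version 4.3.3), with a variance trend and no term but genotype, applied to log2(normalized count + 1). Genes were kept by filterByExpr of edgeR (version 4.0.16) on the recovered reads, and p-values were adjusted by Benjamini-Hochberg over the genes tested. The added 1 understates changes of low genes. Alternatives were TMM and upper-quartile scaling, the quasi-likelihood test of edgeR, the Wald test of DESeq2 (version 1.42.0), pseudocounts of 0.1 and 10, filters of none, of a mean above 15 and of 10 or more reads throughout, a replicate block and each library left out in turn. The scripts were tested on simulated data with fewer and mostly larger changes than in these libraries, so that small changes were not covered. No library was a duplicate of another (chi-square per gene from 5.04 within a genotype).

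The 33 genes, the pathway lists and the markers were chosen with earlier results of these data known, so that none is independent of them. Values in every library are given for genes among the 33 whose adjusted p was under 0.05 and whose log2 fold change was beyond 0.58 in size, for the regulators and for pairs of related genes, and the others by mean and SD. From each pathway list the gene with the largest rise and the one with the largest fall are named. Gene positions are those of mm9. Several spellings of the sterol regulatory element and E-box were searched, of which some are reported, chosen after the matches were seen.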

Additional observations from a re-analysis of the deposited data

How the results depend on the processing

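Under each of the other scalings, tests, pseudocounts and filters, and under the replicate block, the same 24 genes fell and the same 3 rose, and the median of their log2 fold changes over all 33 stayed between -0.85 and -0.76. Each library left out in turn gave 23 to 25 genes that fell and 3 that rose, with medians from -0.91 to -0.68. The count of 12 genes lower by the criteria of the study ranged from 7 to 13 with a library left out, 7 being without Rnf40+/+ replicate 3, when Insig1, Acat2, Mvd, Cyp51 and Dhcr7 came to lie above the limit of -1. Acss2 lies at that limit and crossed it under upper-quartile scaling, edgeR, DESeq2 and a pseudocount of 10, which gave 11. Over all genes tested, the median log2 fold change moved to 0.04 under upper-quartile scaling and 0.03 with no filter. In the lists of related pathways, 14 to 18 genes rose and 17 to 24 fell over all alternatives. Small lists moved by 1 or 2 genes: those that fell went from 2 to 1 for SREBP processing without Rnf40+/+ replicate 1, Rnf40-/- replicate 1 or Rnf40-/- replicate 2, from 3 to 1 for uptake and storage without Rnf40-/- replicate 1, and from 1 to 2 for LXR targets without Rnf40+/+ replicate 1 and under the replicate block, and those that rose went from 5 to 3 for other fatty acid synthesis without Rnf40-/- replicate 1. Npc1 also lost its call under DESeq2, a pseudocount of 0.1 and no filter.

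The replicate numbers of the labels showed no sign of pairing the libraries, which cannot show that none were handled together. Deviations from the genotype means of libraries with the same number correlated at 0.01, 0.02 and 0.02 across genes. With 3 pairs, no library correlated best with its own number. The replicate block left 24 genes of the 33 lower and 3 higher, 12 by the criteria of the study and a median of -0.81, and gave 18 higher and 24 lower genes in the lists of related pathways.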
